A study of Homo sapiens with 4 samples.

Results

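Wide poly(A) clusters (PACs), in which cleavage sites are spread along the transcript rather than gathered at 1 place, were described in 4 PAS-seq libraries. Per the study's methods, sites within 24 nt were grouped first, and neighbouring groups above 5 TPM in all samples were then joined. A wide PAC can therefore hold several such groups, and the part of this joining in the widths was not tested. A PAC was called wide when it was listed in all 4 libraries with more than 5 TPM (tags scaled to the library total, with no correction for length) and an interquantile width above 24 nt in each. The interquantile width runs from the first position, at the 0.1 quantile of the tags, to the last position, at the 0.9 quantile, in the direction of transcription. These rules were met by 1600 of 17627 PACs listed in any library, of 12344 listed in all 4, and of 8909 above 5 TPM in all 4. The wide PACs were thus chosen by their measured width and level, which are given as a description. The 6907 PACs of the same level range with a width of 24 nt or less in every library served as the narrow PACs for comparison, and 118, 165 and 119 PACs were wide in 1, 2 and 3 libraries.

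KYSE30 and TE-1, both established lines labelled esophageal cancer, were treated with 20 mM l-lactate for 24 h or kept as a PBS control, 1 library each. Dose and time come from the study's text, since the sample labels leave them out. The labels' cell line field gives KYSE32 and TE-3 for the control libraries, whereas their titles name K30 and TE1, and the titles were followed here. Without replicates of a group, differences within a line compare libraries, not conditions, and were not tested. The one test across lines took l-lactate against control with the line as a block.

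PAS-seq reads the 3′ ends of polyadenylated RNA, so a tag marks the place where a transcript was cut and given its poly(A) tail. Cleavage is directed by the CPSF complex, which binds the AAUAAA hexamer or its close variant AUUAAA shortly upstream of the cut, with CSTF on the downstream side. The CFIm complex of NUDT21 (CFIm25) and CPSF6 (CFIm68) binds UGUA upstream and influences which of several sites is used. A single hexamer usually gives a small group of neighbouring cuts, while several hexamers in a row can give several groups.

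Total tags recovered from the TPM steps were 7174991 and 7425554 for KYSE30 l-lactate and control, and 8468958 and 10393799 for TE-1 l-lactate and control. Of the 8 squamous markers examined, SFN was listed in every library at 205 to 313 TPM, TP63 and KRT6A in KYSE30 only and KRT17 in TE-1 only. KRT5, KRT14, DSG3 and PKP1 were not listed in any library. Of 9 markers of blood, vessel, stroma, muscle and liver, CD68 reached 15.2 TPM and COL1A1 5.39 TPM and the others were not listed. In bulk RNA such as this, fewer cells of a type and less RNA per cell cannot be told apart.

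The sites of several wide PACs are given as examples of where hexamers lie, and how the spread arose was not tested. Each line below gives the bases of the sense strand (GRCh38) that end at the named position, in lower case with any AATAAA or ATTAAA hexamer in capitals. HNRNPA1, RPL35A and HDGFL3 are shown because both ends of the PAC carry a hexamer of their own, and RACK1 because its first position has none. The bases that follow the first position of RACK1 lie within its last-position line and are rich in A by the rule given below. An oligo(dT) primer can bind such a stretch within a transcript, and the part of such priming at RACK1 was not tested.
HNRNPA1 first position, chr12:54284851-54284880, plus strand: tcgtgacgctgAATAAAtgtctttttttta
HNRNPA1 last position, chr12:54285216-54285245, plus strand: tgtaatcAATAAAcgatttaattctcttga
RPL35A first position, chr3:197955780-197955809, plus strand: gaaaaatcAATAAATAAAtgtggatttgtg
RPL35A last position, chr3:197955820-197955849, plus strand: tttaagtggATTAAAaaacttactacctta
HDGFL3 first position, chr15:83138442-83138471, minus strand: tttaaAATAAActgttttcttttggaacta
HDGFL3 last position, chr15:83137800-83137829, minus strand: agctAATAAAaacatgagaaaatgtgagca
RACK1 first position, chr5:181236957-181236986, minus strand: cacacgctagaagtttatggcagagcttta
RACK1 last position, chr5:181236929-181236958, minus strand: tacaAATAAAaaaaaaactggcttttctga
The interval from the end of the hexamer to the cut was 13 and 17 nt at the HNRNPA1 ends, and 12 and 15 nt at those of RPL35A. It was 19 and 20 nt at those of HDGFL3.

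The wide PACs had a median width of 186, 184, 188 and 187 nt in KYSE30 l-lactate, KYSE30 control, TE-1 l-lactate and TE-1 control, the order in which 4 values are given from here on. The widths ran from 25 to 1658 nt, and 630 of the 1600 PACs had a mean width of 201 to 500 nt. Another 163 were 50 nt or less and 123 were above 500 nt. The levels were close to those of the narrow PACs, with medians of 34.6, 34.0, 34.5 and 32.9 TPM against 28.7, 28.6, 28.0 and 27.2 TPM. Wide PACs held 14.2%, 14.0%, 14.9% and 14.3% of the listed tags.

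Tags within wide PACs were divided among sites. The dominant site, the position with the most tags, held a median of 51.2%, 51.5%, 51.3% and 51.0% of the tags of its PAC, against 82.2% to 82.5% in narrow PACs. It held less than 50% in 750 to 754 wide PACs per library, 46.9% to 47.1%, against 11.7% to 12.2% of narrow PACs. A smaller dominant share is partly built into the width rule, so this is no separate finding. The widest class, above 500 nt, had the smallest median share, 41.4% to 42.4% over the 4 libraries, and the other classes lay between 50.5% and 55.6%.

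**Figure D1:**
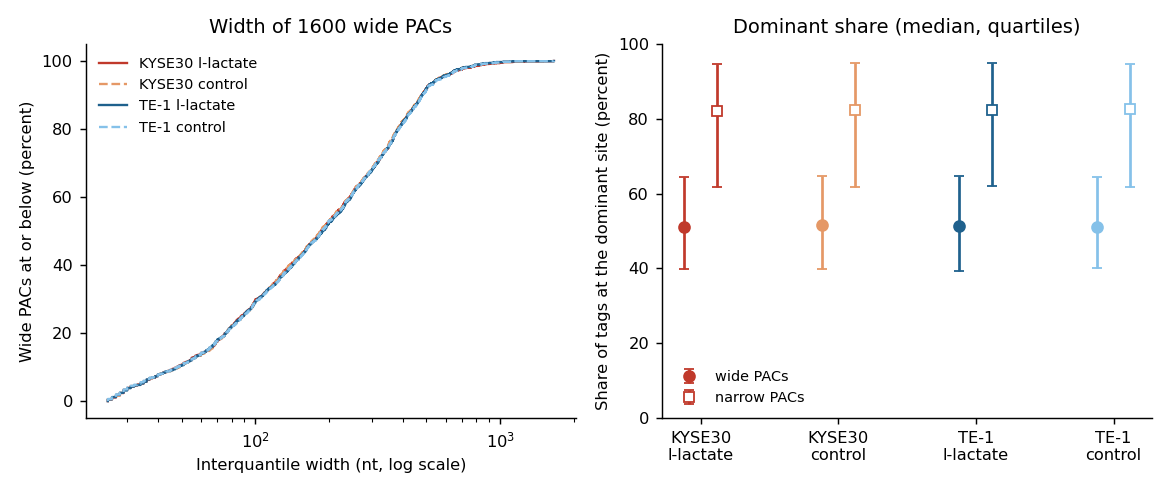
Left, cumulative percent of the 1600 wide PACs against interquantile width in nt on a log axis, 1 line per library; the 4 lines lie on each other, with medians of 184 to 188 nt. Right, median dominant share in percent with the quartiles as bars, filled circles for wide and open squares for narrow PACs; wide PACs sit near 51% and narrow PACs near 82% in each library.

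In 50 wide PACs (3.13%) the files' own values conflicted. Their dominant share was above 90% in at least 1 library, and a site with that share should hold both quantiles and give a width of 1 nt. This happened in 14, 18, 22 and 29 PACs per library and in none in all 4. The cluster level and the quantile positions of these PACs therefore cannot rest on the same tags, and the cause was not tested. DUS2, IFIT5, GOLT1B, ABCC3, MRPS30 and NSD2 are among them, and their share values are given below only with this limit. The check sees only shares above 90%, so a smaller mismatch in other wide PACs would go unseen. Among all listed PACs, 16 to 19 per library had a dominant site with a higher level than the PAC itself.

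The place of the spread was largely the same in all libraries. The first position was identical in all 4 libraries for 1244 PACs, the last for 1252 and the dominant site for 1257, and all 3 positions were identical for 744 (46.5%). The width was identical in 960 (60%) and differed by at most 24 nt in 1421. A range above 100 nt over the libraries was found in 116.

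The dominant site lay at the first position in 30.6% to 32.4% of wide PACs, at the last in 35.2% to 36.8% and between them in 32.1% to 32.6%. In all 4 libraries it was at an end in 931 PACs (58.2%, 95% Wilson interval 55.8 to 60.6, which covers counting error only). In narrow PACs, many of them a few nt wide, the first position was the dominant one in 67.2% to 67.7%.

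Poly(A) hexamers were searched as AATAAA or ATTAAA on the sense strand within the 50 nt that end at a site. A hexamer was found upstream of the dominant site in 77.6%, 77.6%, 76.6% and 76.6% of wide PACs, against 88.3% to 88.4% of narrow PACs. At the first position the values were 68.5%, 68.7%, 68.2% and 68.9%, and at the last position 73.8%, 73.7%, 73.7% and 73.5%. The intervals of wide and narrow PACs did not overlap at any of the 3 sites in any library. A match is a description of the sequence and not proof of use.

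Separate hexamers at both ends were the most frequent arrangement. The first and the last position each had a hexamer of its own in 840, 842, 835 and 840 wide PACs (52.2% to 52.6%). The ends shared a hexamer in 46 to 48, only the first had one in 208 to 215, only the last in 289 to 296, and neither in 209 to 213. The PACs with a hexamer at neither end, 13.1% to 13.3%, lay near the 11.6% of narrow PACs. Between 64.4% and 64.6% of wide PACs held 2 or more hexamers over the span with its upstream 50 nt, against 7.33% to 7.37% of narrow PACs. That sequence was longer in wide PACs (median 234 to 238 nt against 54 nt), and per 100 nt it held 0.652 to 0.657 hexamers against 1.75. The density is largely set by the search, since in narrow PACs the sequence is little more than the upstream 50 nt.

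The arrangement by width is partly set by the search, since ends further apart than the 50 nt window can hardly share a hexamer. In the 163 PACs of 25 to 50 nt, 24.5% to 25.8% had separate hexamers and 27.6% to 28.8% had a shared one. From 51 to 100 nt, separate hexamers were found in 52.6% to 52.9%, from 201 to 500 nt in 57.6% to 58.3% and above 500 nt in 48.8% to 52.9%. In the narrowest class the first position had a hexamer more often (72.4%) than the last (63.2% to 64.4%). In every wider class the last position had the higher share, from 71.0% to 71.7% beside 66.2% to 67.2% at 51 to 100 nt, to 76.4% to 78.9% beside 59.3% to 63.4% above 500 nt.

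**Figure D2:**
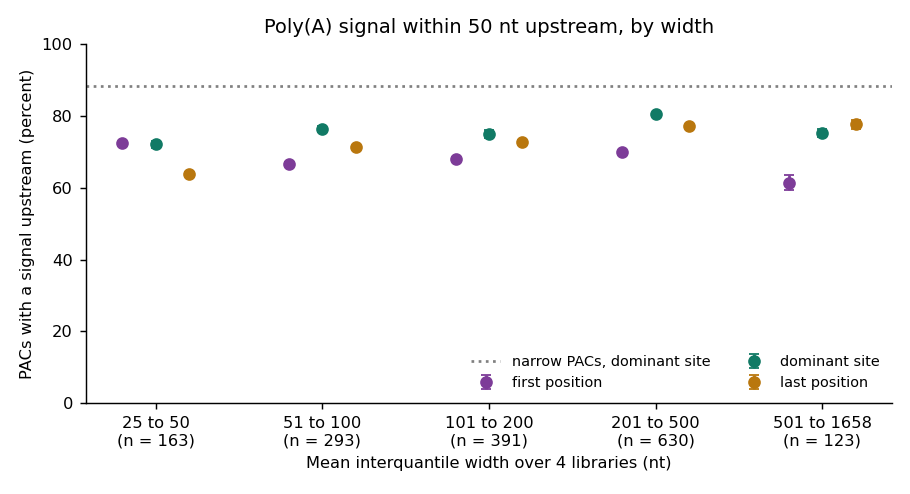
Percent of wide PACs with AATAAA or ATTAAA in the 50 nt upstream of the first position, the dominant site and the last position, by class of mean width in nt; points are midpoints and bars the lowest and highest of the 4 libraries, and the dotted line gives narrow PACs at the dominant site. The first position falls from 72.4% in the narrowest class to 59.3% to 63.4% in the widest, and the last position rises.

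From the end of the nearest hexamer to the cut the median interval was 16 nt at the first and the dominant site and 18 nt at the last position, in each library. Narrow PACs gave 15, 16 and 18 nt. UGUA, searched as TGTA in the upstream 100 nt, was present at 61.3% to 61.6% of dominant sites of wide PACs and at 58.6% of those of narrow PACs. The upstream sequence had a median GC content of 31.8% in wide and 34.5% in narrow PACs.

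Stretches rich in A just after the cut, where an oligo(dT) primer can bind within a transcript, were examined as at least 7 A in the following 10 bases or 6 A in a row. They followed 4.00% to 4.19% of first positions, 2.63% to 2.94% of dominant sites and 1.13% to 1.25% of last positions of wide PACs. In narrow PACs the share was 0.869% to 1.20% at all 3 places. The highest value, 11.7% to 12.9%, was that of the first position in the 25 to 50 nt class. The part of such priming in the widths was not tested.

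Nearly all wide PACs lay in 3′ UTRs (GENCODE release 44), namely 95.1%, 94.9%, 95.1% and 95.3%, against 89.7% to 89.9% of narrow PACs. Introns held 8 to 11 of them, coding exons 3 or 4, non-coding exons 37 to 39 and the space between genes 27 or 28. They belonged to 1519 genes, of which 1447 had 1 wide PAC, 66 had 2 and 6 had 3. For 1034 of 1525 (67.8%) the wide PAC was the only 3′ UTR PAC of its gene above 5 TPM, against 74.7% of narrow PACs. Another 274 (18.0%) were the most proximal of several, against 10.8% of narrow PACs, and 173 (11.3%) the most distal, against 12.8%.

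Annotated transcript ends matched the last position more often than the first. An annotated end lay within 24 nt of the first position in 35.1% to 35.9%, of the dominant site in 56.3% to 57.0% and of the last position in 62.8% to 63.3% of wide PACs. In narrow PACs it was 82.6% to 82.7% at all 3. Both ends were annotated in 376 wide PACs and neither in 407.

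Groups of genes differed in how many of their members carried a wide PAC, beside 1519 of 7524 genes (20.2%) overall. Of 32 SR and hnRNP proteins, which bind nascent RNA and steer splicing, 16 had one (50%, interval 33.6 to 66.4). They included SRSF1, SRSF3, SRSF5, SRSF6, TRA2B, HNRNPA1, HNRNPA2B1, HNRNPC, HNRNPK and HNRNPU. Higher shares than overall were also found in ubiquitin-conjugating enzymes (10 of 28), heat shock and DNAJ chaperones (14 of 41), RAB GTPases (12 of 37) and mitochondrial ribosomal proteins (22 of 76), although the intervals of the latter pair include the overall share. At the other side stood subunits of oxidative phosphorylation, 5 of 73 (6.85%, interval 2.96 to 15.1), glycolysis enzymes with PGK1 alone of 12, and keratins and S100 proteins with 0 of 14. The intervals of the last 2 groups, 1.49 to 35.4 and 0 to 21.5, include the overall share. No set test was run.

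**Figure D3:**
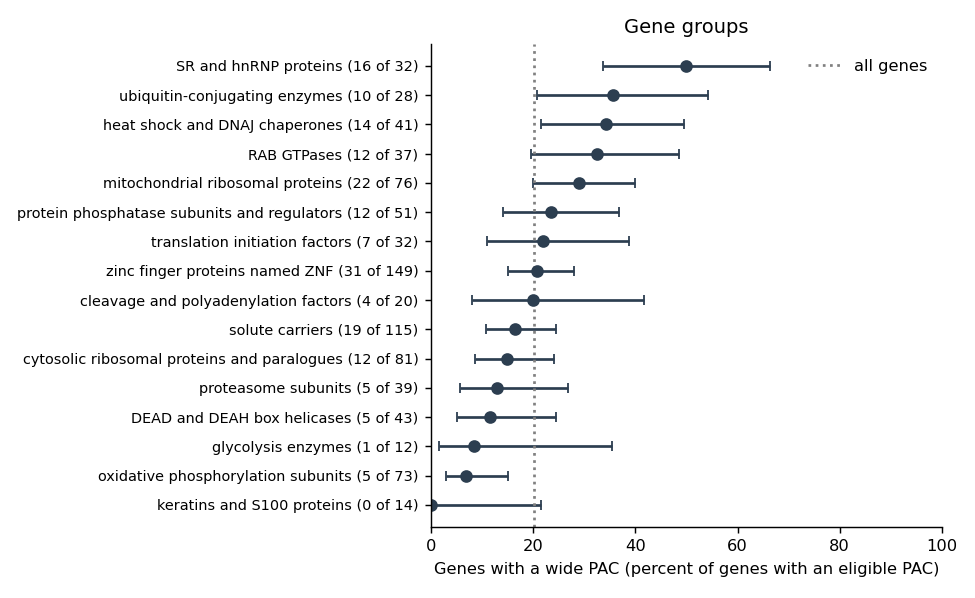
Percent of the genes of each group, among those with a PAC above 5 TPM in all libraries, that carried a wide PAC; points are shares, bars 95% Wilson intervals and the dotted line all genes (20.2%). SR and hnRNP proteins stand highest at 50% and oxidative phosphorylation subunits at 6.85%.

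Of 20 cleavage and polyadenylation factors, 4 had a wide PAC, namely CPSF2, CPSF6, CSTF1 and NUDT21. Their share of 20% (interval 8.07 to 41.6) did not stand apart from the 20.2% of all genes. The PAC of NUDT21 was 203 or 204 nt wide, with 39.0, 45.5, 55.6 and 67.1 TPM and dominant shares of 54.3%, 62.7%, 60.3% and 64.1%. Both its level and its dominant share were lower in the l-lactate library of either line, by less than 1.5 fold and less than 10 points. The PAC of CPSF6 had 143, 98.7, 246 and 127 TPM and a width of 182, 279, 450 and 279 nt. Its level was higher with l-lactate by less than 1.5 fold in KYSE30 and by more than 1.5 fold in TE-1. Its width was smaller in KYSE30 and larger in TE-1.

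Of 115 solute carriers, 19 had a wide PAC (16.5%, interval 10.8 to 24.4), beside 20.2% of all genes. They included a lactate and a glucose transporter. SLC16A1, the lactate transporter MCT1, had a PAC of 504 to 508 nt with 48.5, 50.8, 36.8 and 41.7 TPM. Its dominant site held 38.8%, 51.7%, 32.1% and 36.7%, lower with l-lactate in both lines. SLC2A1, the glucose transporter GLUT1, had a PAC of 79 nt in every library with dominant shares of 74.2%, 72.5%, 70.3% and 68.2%.

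The widest PAC was that of SERBP1, an mRNA-binding protein, at 1658 nt in all 4 libraries with 274, 241, 306 and 293 TPM. Its dominant site lay 1624 nt past the first position and held 45.8%, 46.3%, 43.1% and 43.1%. SRSF3 spanned 1134 or 1136 nt with 5 hexamers, and its dominant site held 22.5%, 21.5%, 23.4% and 22.0%. The other PACs with the largest median widths were those of NIPA2, WDR3, ENAH, RBM27, CD55 and RAB18.

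Among the 8 PACs with the highest mean level, the spread was the same to the nt in all libraries except for PCBP2 (225 to 234 nt). RPL35A, a ribosomal protein, had 5122, 5199, 2833 and 2913 TPM over 41 nt, and HNRNPA1 3049, 2996, 3439 and 3368 TPM over 366 nt. The dominant share of HNRNPA1 was 61.4%, 61.7%, 61.4% and 63.1%. RACK1, a ribosome-associated scaffold, had 35.9%, 35.9%, 35.2% and 35.8% over 29 nt. Such genes have processed copies elsewhere in the genome, and how reads matching several places were handled is not given in the sources used here.

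At the width threshold the values were continuous. KIF2C and STX6, with 25 nt in every library, and SNRPE, with 25 to 28 nt, lay just inside, and SDHAF2, CRADD and TSC2, at 24 nt in every library, just outside.

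The comparison of l-lactate with control asked whether the dominant site moved within its PAC. In KYSE30 it moved by more than 24 nt downstream in 69 wide PACs and upstream in 52. Among all PACs tested, 0.802% moved downstream and 0.627% upstream. In TE-1, 60 moved downstream and 43 upstream, beside 0.734% and 0.511% of all PACs. Narrow PACs cannot move this far, so the excess of wide PACs over the background follows from the width rule. The downstream share of the moves was 57.0% in KYSE30 (interval 48.1 to 65.5) and 58.3% in TE-1 (48.6 to 67.3), and both intervals include an even division. They cover counting error over PACs only, not the spread between libraries.

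Moved PACs had a small dominant share, which any change of the leading site makes likely. The smaller of the 2 dominant shares had a median of 35.4% in moved PACs and 51.4% in PACs with the same dominant site in KYSE30, and 35.7% and 50.4% in TE-1. Of the 121 moves in KYSE30, 98 had a dominant share under 50% in both libraries, and of the 103 in TE-1, 78. A median move downstream was 192 nt in KYSE30 and 187.5 nt in TE-1.

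The same direction was seen in both lines in 15 PACs, 11 downstream and 4 upstream, and the opposite direction in 6. Agreement by size, here and below for width, share and level, was counted in wide PACs only. It therefore has no share of all PACs beside it and does not mark these PACs out. Beside FDX1 and FAM98B, those with the largest moves downstream were GATAD2B, MMP24OS, CIAPIN1 and TMEM69. In GATAD2B, a subunit of the NuRD chromatin complex, the dominant site was 461 nt further downstream with l-lactate in both lines. It held 45.2%, 44.1%, 45.9% and 44.2%, and no hexamer lay in the span. In CIAPIN1, which acts in cytosolic iron-sulfur cluster assembly, the move was 363 nt in both lines, from a site with ATTAAA to one with AATAAA. Its dominant shares were 49.5%, 44.4%, 46.7% and 46.5%. TMEM69, a membrane protein, moved by 308 nt with shares of 31.3%, 25.9%, 24.5% and 32.0%. The CIAPIN1 and TMEM69 sites are shown because the dominant site passed between them.
CIAPIN1 dominant site in both controls, chr16:57428552-57428581, minus strand: ttcaggtATTAAActtgctgcatatcttga
CIAPIN1 dominant site in both l-lactate libraries, chr16:57428189-57428218, minus strand: attttaccagtaAATAAAagttttcattga
TMEM69 dominant site in both controls, chr1:45694100-45694129, plus strand: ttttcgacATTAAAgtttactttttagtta
TMEM69 dominant site in both l-lactate libraries, chr1:45694408-45694437, plus strand: atcttgaaaATTAAAgATTAAAaatcccct

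Upstream moves in both lines were found in MRFAP1, HDGFL3, GTF2H1 and MARCHF6. In MRFAP1, whose PAC runs from the 3′ UTR past the annotated gene end, the dominant site was 380 nt further upstream with l-lactate, with shares of 22.2%, 21.7%, 22.6% and 21.2%. In HDGFL3 the move was 265 nt, and in GTF2H1, a subunit of TFIIH, 230 nt. MARCHF6, an E3 ubiquitin ligase of the endoplasmic reticulum, moved by 50 nt, and its width was 51 nt in both l-lactate and 295 nt in both control libraries. Its first position thus lay further downstream with l-lactate while its dominant site lay further upstream.

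**Figure D4:**
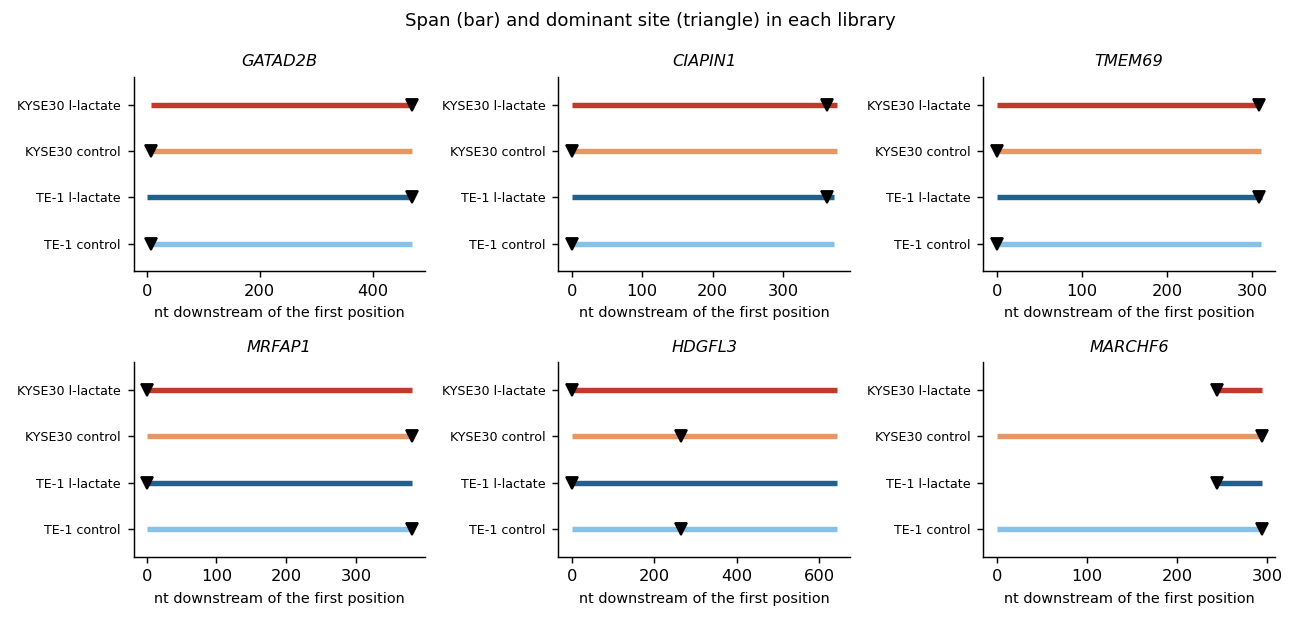
Span from first to last position (bars) and dominant site (triangles) in each library, in nt downstream of the most upstream first position, for 6 PACs whose dominant site moved the same way in both lines. GATAD2B, CIAPIN1 and TMEM69 moved downstream with l-lactate by 461, 363 and 308 nt, and MRFAP1, HDGFL3 and MARCHF6 upstream by 380, 265 and 50 nt.

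The other transcripts that the study names behaved in different ways as wide PACs. PAWR had 2 wide PACs. In the one of 530 nt the dominant site lay 180 nt further downstream with l-lactate in KYSE30 and 349 nt in TE-1, and in the other, of 78 to 81 nt, it did not move. BTF3L4 also had 2, and in the wider one, 272 nt in each library, the dominant site moved 252 nt downstream in TE-1 and kept its place in KYSE30. In the other, of 28 or 37 nt, it lay 27 nt further upstream in TE-1 (-27 nt) and kept its place in KYSE30.

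Widths changed in few PACs. With l-lactate 49 wide PACs were wider by more than 24 nt and 44 narrower in KYSE30, beside 1.31% and 1.07% of all PACs. In TE-1, 41 were wider and 49 narrower, beside 1.12% and 1.21%. In both lines 12 were wider and 11 narrower, and 12 went opposite ways.

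The ends of the spread moved in still fewer PACs. With l-lactate in KYSE30 the first position lay more than 24 nt downstream in 31 wide PACs and upstream in 19, beside 0.719% and 0.562% of all PACs. The last position lay downstream in 32 and upstream in 16, beside 0.765% and 0.378%. In TE-1 the first position was downstream in 35 and upstream in 19, beside 0.864% and 0.548%, and the last in 24 and 16, beside 0.604% and 0.362%. Downstream differences thus outnumbered upstream ones at both ends in both lines, as they did among all PACs.

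The dominant share could be compared where the dominant site was the same. In KYSE30 it was at least 10 percentage points higher with l-lactate in 68 of 1441 wide PACs and lower in 74, beside 3.34% and 3.62% of all PACs. In TE-1 it was higher in 73 of 1457 and lower in 81, beside 2.64% and 2.87%. The median wide PAC had 248.5 to 341.5 tags, and with the added demand that the Wilson intervals of both shares did not overlap, 16 and 34 remained in KYSE30 and 35 and 37 in TE-1. This demand was applied to wide PACs only, so the counts cannot be set beside a share of all PACs. In PACs with the same dominant site in all 4 libraries, 13 were higher in both lines, 13 lower in both and 10 opposite.

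Where the dominant site was the first position, its share was more often lower with l-lactate. In KYSE30 it was lower in 253 and higher in 174 of 430 such PACs, with a median difference of -1.25 percentage points, and in TE-1 lower in 269 and higher in 184 of 456, with a median of -1.07. Where it was the last position, the share was higher in 274 and lower in 249 of 525 in KYSE30 (median 0.370) and higher in 268 and lower in 237 of 509 in TE-1 (median 0.287). Narrow PACs with the dominant site first had a median of 0 in both lines, with 1977 lower and 1732 higher in KYSE30 and 1655 lower and 2016 higher in TE-1. Those with it last had medians of 0.151 in KYSE30 and 0.0368 in TE-1. Between the lines the medians in wide PACs were larger. For TE-1 minus KYSE30 they were 1.66 (controls) and 1.91 (l-lactate libraries) at the first position, and -1.44 and -0.861 at the last. Whether the differences with l-lactate exceed those between any 2 libraries was not tested.

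RPL15 and CCT6A, a pair of deeply read PACs with the dominant site first, showed such differences beyond counting error. In RPL15, a ribosomal protein, the first position held 54.3% with l-lactate and 61.7% in the control of KYSE30, and 61.5% and 69.3% in TE-1. In CCT6A, a chaperonin subunit, it held 60.9% and 65.8% in KYSE30 and 59.1% and 63.3% in TE-1. The Wilson intervals of l-lactate and control did not overlap in either line for RPL15 or CCT6A. HNRNPA1 is also deeply read with the dominant site first. Its shares, given above, were lower with l-lactate by less than those of RPL15 and CCT6A in both lines. In PRDX1, a peroxiredoxin with its dominant site 174 nt past the first position, the shares were 71.1% and 70.2% in KYSE30 and 67.6% and 63.9% in TE-1.

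Of the PACs with a higher dominant share in both lines, SMG1, the kinase of nonsense-mediated decay, had 74.1% and 51.8% in KYSE30 and 79.7% and 58.1% in TE-1, from 83 to 155 tags. In GPN3, a small GTPase, the last position held 63.0% and 44.4% in KYSE30 and 68.9% and 54.9% in TE-1. The intervals did not overlap in either line for both genes. VPS54 had 58.3% and 38.7%, and 51.6% and 36.3%, from 60 to 102 tags, with overlapping intervals. LRRC59, of the endoplasmic reticulum membrane, was lower with l-lactate, at 36.0% and 59.1% in KYSE30 and 37.3% and 49.3% in TE-1. RANBP2 was higher with l-lactate, and DUS2, IFIT5, GOLT1B, ABCC3 and MRPS30 carry the conflict of share and width described above.

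With the line as a block, limma on log2 TPM over 8909 PACs (1 residual degree of freedom) called 0 wide PACs changed in level at an adjusted p under 0.05, beside 0% of all PACs. The lowest adjusted p was 0.112, and 150 wide PACs were higher and 73 lower at an unadjusted p under 0.05, 13.9% beside 12.5% of all. For the dominant share, over 8058 PACs with the same dominant site in all libraries, limma likewise called 0, beside 0% of all. The lowest adjusted p was 0.538. At an unadjusted p under 0.05, limma had 79 of 1257 wide PACs higher and 96 lower, 13.9% beside 8.71% of all. The difference between these shares was not tested.

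Levels past 1.5 fold were few. With l-lactate 33 wide PACs were more than 1.5 fold higher and 30 lower in KYSE30, beside 1.86% and 2.28% of all PACs, and 46 were higher and 21 lower in TE-1, beside 2.67% and 1.76%. Rescaled to the median ratio of the 2 TE-1 libraries, 37 were higher and 29 lower. In both lines 6 were higher and 4 lower. Named after their values were seen, they included RNF2, IFIT5, GOLT1B, RPL37A, NSD2 and NLN on the higher side and SPEN-AS1, LINC00958 and RANBP2 on the lower. IFIT5, GOLT1B and NSD2 are among the PACs with conflicting values, and their levels carry the same limit. At the dominant site of IFIT5 the tags numbered 76, 69, 75 and 84. RPL37A, a ribosomal protein, had 50.03 TPM with l-lactate and 26.3 TPM in the control of KYSE30, and 62.7 and 41.7 TPM in TE-1.

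In these libraries the dominant site more often lay upstream in TE-1 than in KYSE30. Among the controls it was more than 24 nt downstream in TE-1 in 71 wide PACs and upstream in 102, beside 0.809% and 1.25% of all PACs, so that 41.0% were downstream (interval 34.0 to 48.5). Among the l-lactate libraries 66 were downstream and 93 upstream, beside 0.818% and 1.15%, or 41.5% downstream (34.1 to 49.3). In both comparisons 29 PACs were downstream and 40 upstream in TE-1, and 6 went opposite ways. These comparisons use the same 4 libraries as those of l-lactate. Their intervals cover counting error over PACs only, not the spread between libraries.

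At the ends, the first position lay downstream in TE-1 in 24 and upstream in 34 wide PACs among the controls, beside 0.874% and 1.28% of all PACs, and the last in 19 and 20, beside 0.539% and 0.928%. Among the l-lactate libraries the first position was downstream in 26 and upstream in 33, beside 0.85% and 1.1%, and the last in 26 and 35, beside 0.605% and 1.21%.

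Widths differed between the lines by more than 24 nt in 53 PACs wider and 39 narrower in TE-1 among the controls, beside 1.81% and 1.73% of all PACs. Among the l-lactate libraries 55 were wider and 56 narrower, beside 1.64% and 1.99%. HSPA9, a mitochondrial heat shock protein, was 494 nt wide in both KYSE30 and 947 nt in both TE-1 libraries, with the same dominant site. SRP68, of the signal recognition particle, was 324 nt wide in KYSE30 and 782 nt in TE-1. CD55, an inhibitor of complement, was 1253 nt wide in KYSE30 and 790 nt in TE-1, at 28.3, 37.7, 765 and 759 TPM. Its dominant site lay 789 nt past the first position in 3 libraries and at the first position in the TE-1 control. NIPA2 was 1497 and 1492 nt wide in KYSE30 and 1099 nt in TE-1, and USP9X had widths of 1000, 582, 495 and 195 nt from 49 to 568 tags.

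**Figure D5:**
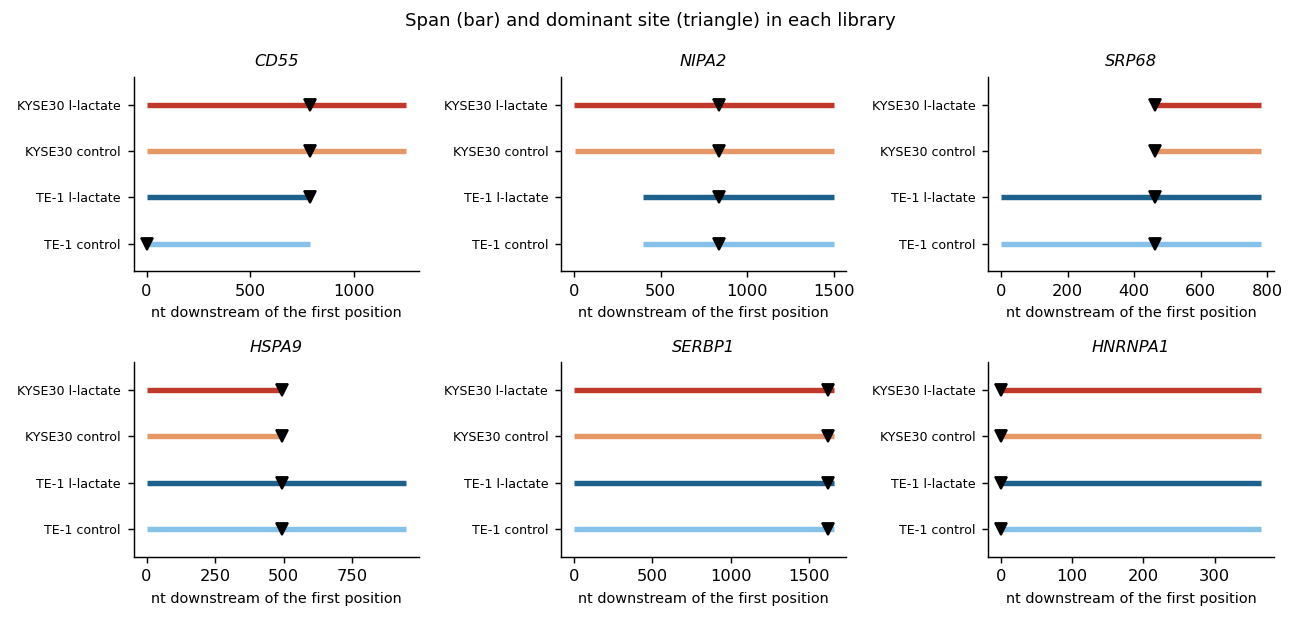
Span from first to last position (bars) and dominant site (triangles) in each library, in nt downstream of the most upstream first position, for 4 PACs with a line difference in width and for SERBP1 and HNRNPA1. CD55 and NIPA2 were wider in KYSE30, SRP68 and HSPA9 in TE-1, and SERBP1 and HNRNPA1 had 1658 and 366 nt in all libraries.

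Levels differed more between the lines than with l-lactate. Among the controls 396 wide PACs were more than 1.5 fold higher in TE-1 and 379 lower, shares of 24.8% and 23.7% beside 23.2% and 24.8% of all PACs. Among the l-lactate libraries 410 were higher and 347 lower, beside 24.3% and 22.2%. TM4SF1, a tetraspanin-like membrane protein, had 254 and 222 TPM in KYSE30 and 3057 and 3041 TPM in TE-1, over the same 650 nt. The dominant share differed by at least 10 points in 131 higher and 116 lower of 1376 PACs among the controls, beside 4% and 3.74%, and in 143 higher and 115 lower of 1390 among the l-lactate libraries, beside 4.21% and 4.1%.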

How the data were processed

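PAS-seq was read in 4 libraries, 1 per line and treatment. Reads were trimmed and aligned with HISAT2 to the human genome (GRCh38.p14 per the labels) and 3′ ends were grouped into PACs with CAGEr by the authors, per the study's methods. Per the same methods, PACs above 5 TPM in all samples that lay near each other were then joined further. The deposited values are RPM (headed tpm, tags scaled to the library total without length correction, called TPM in the report), for the PAC and its dominant site, with the positions of the cluster and of its quantiles. Filters on weak sites were applied by the authors before deposit.

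Listed values were whole numbers of tags at 1 total per library (tolerance 0.01 tag beyond rounding). Totals were recovered from these steps and used only for tag numbers and Wilson intervals (95%), which cover counting error only. No count test was run. limma 3.58.1 was fitted to log2 TPM and to the dominant share with line and treatment as terms, a fit added after seeing the data. Positions were matched to GENCODE release 44, allowing 5000 nt past a gene end, and sequence was read from the genome of the same build. Python 3.11.15, pandas 2.3.3, SciPy 1.17.1 and pysam 0.24.0 were used, and the calculations were tested on simulated data.

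A move or width difference counted above 24 nt, a share difference from 10 points, and a level above 1.5 fold, without a pseudocount. Groups came from sample titles and treatments. PACs named were the 8 widest, the 8 highest, those moved the same way in both lines (up to 6 each way), the 5 with the largest line difference in width, up to 5 with a share changed the same way each way, transcripts the study names, 3 on each side of the threshold and members of printed gene groups. The wide PACs and the gene lists were chosen with earlier results of these data known. Alternatives changed the thresholds, windows and filters one at a time. A result for 1 PAC is not reported here.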

Additional observations from a re-analysis of the deposited data

Results flagged for a closer look

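In 6 wide PACs the dominant site moved by more than 24 nt in opposite directions with l-lactate in the 2 lines, and with 1 library per group these differences were not tested. A PAC on chromosome 11 that was given to no gene moved by -107 nt (upstream) in KYSE30 and 107 nt downstream in TE-1. ZNHIT3 moved by -64 nt in KYSE30 and 64 nt in TE-1, SP100 by -158 and 158 nt, and ZNF148 by -110 and 99 nt. ASXL2 moved by 274 nt in KYSE30 and -274 nt in TE-1, and PRKD3 by 206 and -193 nt.

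The level went in opposite directions by more than 1.5 fold in 3 wide PACs, which was not tested either. Among them was a PAC in a non-coding exon of MALAT1, a nuclear long non-coding RNA. No hexamer was found over its span or in the searched sequence upstream, in any library. Its log2 ratio of l-lactate to control was -1.46 in KYSE30 and 1.61 in TE-1, from 191 and 523 TPM and from 331 and 109 TPM. These are levels of this PAC, and the level of MALAT1 RNA as a whole was not tested. The width of the PAC was 130, 391, 373 and 112 nt, larger where the level was higher. For a PAC in a coding exon of RPS24 the log2 ratio was -1.30 in KYSE30 and 1.62 in TE-1, from 44 to 183 tags. For YIPF6 it was -0.68 and 0.86, from 61 to 105 tags.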

How the results depend on the processing

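Each group had 1 library, so no spread between replicates could be set beside a value. With the line as a replicate block, a fit chosen after seeing the data, limma called 0 wide PACs for level and 0 for dominant share, against 10 and 26 called the same way in both lines by size alone. Depth limits the shares, with at least 36, 39, 43 and 52 tags in the wide PACs of the 4 libraries. The number of wide PACs was 1273 above 10 TPM, 1409 above 50 nt, 1731 and 1708 when width was required in the KYSE30 or TE-1 libraries alone, and 1900 without a TPM filter. Leaving out the 50 PACs with conflicting values, an alternative chosen after seeing the data, left 1550, and each result recomputed on them stayed within its interval or within 1.5 times. Of 140 alternative values, 98 stayed so and 42 did not. A reversal was looked for only in the median changes of the dominant share, where none was found. Among the counts the larger side could change. The TE-1 dominant share was higher in 73 and lower in 81 from 10 points, but 239 and 232 from 5 points. The KYSE30 level was higher in 33 and lower in 30 past 1.5 fold, but 4 and 7 past 2 fold.

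Over the full cluster length the median width was 221.5 nt instead of 187.6 nt. Allowing 5 nt, the dominant site was at an end in all 4 libraries in 70.6% of wide PACs instead of 58.2%. The hexamer in all 4 libraries (67.1%, 74.1% and 72.4% at the first, dominant and last position) fell to 63.6%, 69.9% and 68.6% when it had to end 10 to 35 nt upstream and to 47.2%, 53.9% and 54.4% for AATAAA alone, and a 40 nt window gave 69.8% at the last position. The 3′ UTR share in all 4 libraries was 96.2% above 10 TPM instead of 94.6%.

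Above 10 TPM the downstream moves with l-lactate numbered 41 in KYSE30 and 39 in TE-1, and the upstream differences of TE-1 among the l-lactate libraries 61. Width changes with l-lactate past 100 nt numbered 32 wider and 23 narrower in KYSE30 and 23 and 32 in TE-1, and changes of any size 188 and 167, and 170 and 177. Between the lines, width past 100 nt was narrower in TE-1 in 22 PACs among the controls, and wider in 33 and narrower in 35 among the l-lactate libraries. From 5 points the dominant share was higher in 240 and lower in 243 in KYSE30 and in 239 and 232 in TE-1. Requiring 10 points and also intervals that do not overlap, chosen after seeing the data and applied to wide PACs only, gave 16 and 34, and 35 and 37. Past 2 fold the level was higher in 4 and lower in 7 in KYSE30, and in 5 and 1 in TE-1. The fewer calls follow from the stricter limits or the fewer PACs.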

Other observations

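A pair of wide PACs lay in nuclear copies of mitochondrial genes on chromosome 1. That of MTND2P28 had 51.8, 48.2, 19.4 and 18.9 TPM, and that of MTATP6P1 82.9, 77.8, 48.4 and 59.4 TPM with dominant shares of 16.5%, 15.9%, 15.6% and 14.9%. Both were higher in the KYSE30 libraries. No PAC on the mitochondrial genome is listed in the files used here, and the origin of these tags was not tested.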
